A study of Mus musculus with 12 samples.

Results

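Mouse embryos held at the 4-cell stage by U0126 were compared with untreated embryos of the same day, day 2.5. The 4 arrays of this comparison were chosen by their titles out of 12: 2 of ICR embryos treated with 20 µM U0126 (4-cell, arrested) and 2 of untreated ICR control embryos, which had 4 to 8 cells by then. The other 8 arrays, also of ICR embryos, were of released embryos at day 3.5 and day 4.5, taken out of the arrest, and of untreated controls at day 1.5 (2 cells) and day 3.5 (morula to blastocyst), 2 arrays in each group. Released embryos had 8 cells at day 3.5 and were morulae to blastocysts at day 4.5. The 8 arrays entered the estimate of the spread, and the groups of days 1.5 and 3.5 are given where they place a gene in time. The comparison addresses which transcripts depend on ERK activity while embryos leave the 4-cell stage. Treated embryos were labelled as arrested with 4 cells while controls had up to 8, so treatment and stage cannot be told apart in it.

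ERK is the last kinase of a cascade in which receptor tyrosine kinases, such as the FGF receptors, act through Ras and Raf on the MEK kinases, and MEK activates ERK. U0126 inhibits MEK. Active ERK induces immediate-early genes such as Fos and Egr1 and its own inhibitors of the Sprouty, Spred and Dusp families. Around the stage studied, stored maternal mRNAs are removed, embryonic transcription builds up, cells compact through E-cadherin, and the first lineages part into trophectoderm, epiblast and primitive endoderm.

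Labels of the samples did not say whether replicates came from separate cultures or pools of embryos, although the series text speaks of independent experiments. What the p-values measure is thus only how these samples spread, which may be technical, and the number of arrays limits the precision. All 8 markers of preimplantation embryos, among them Pou5f1, Dppa3, Zp3 and Nanog, were measured above the filter. No marker of cumulus cells (0 of 9) or sperm (0 of 5) passed the filter, and of oviduct epithelium and blood 1 of 5 each did, Ovgp1 and Cd68. Cd68, a macrophage marker and a lysosomal membrane protein, rose to a level, log2(intensity + 1), of 7.29 and 6.50 on the U0126 arrays, against 4.62 and 4.31 on the control arrays (difference 2.43 ± 0.40, limma adjusted p = 0.00452, at least 1.90 against a level of 5). Hba-a1, Ptprc, Csf1r and Lyz2 of the same list stayed below the filter, and the summed intensity of the list was 196 and 132 in U0126 embryos and 63.8 and 61.8 in controls. The oviduct list summed to 58.7 and 114 in U0126 embryos and 53.04 and 69.7 in controls. Their part in the results was not tested. In bulk RNA, fewer cells of a type and less RNA per cell cannot be told apart. Over the tested genes the U0126 arrays had r = 0.955 and differed by a median of 0.44 log2 units, whereas the control arrays had r = 0.977 and differed by a median of 0.32.

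Levels are log2(intensity + 1) throughout, and differences are U0126 minus control on that scale with their standard error. Of 9929 tested genes, 1383 passed limma's test at a Benjamini-Hochberg adjusted p under 0.05, which is 13.9% of them. In U0126 embryos 915 genes (9.22%) were higher and 468 (4.71%) lower. The groups overlapped in 0 of the 1383 genes called, while 53.5% of all tested genes had no overlap between the 2 groups, 32.3% with U0126 above and 21.2% with U0126 below. Differences over 2 log2 units were seen in 335 called genes, 224 of them higher and 111 lower. Of the higher genes, 277 had both control arrays below a level of 5, and 119 of the lower genes had both U0126 arrays there. For such genes a second difference, with values under 5 raised to 5, is given as a lower bound. The median difference over all tested genes was 0.11. Centring each array on its median moved it to -0.09 and gave 553 higher and 623 lower genes, so that the share of higher genes among those called was 47.0%, in place of 66.2%. Quantile normalization gave 571 higher and 543 lower genes.

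The calls depended on single arrays. Leaving out 1 of the 4 arrays at a time left 808 genes without U0126 replicate 1, 1183 without U0126 replicate 2, 409 without control replicate 1 and 575 without control replicate 2. These 4 settings, in this order, are called the 4 leave-outs below, and 291 genes (199 higher, 92 lower) passed in all of them. The replicate numbers were taken to pair the samples, though the labels do not say what a number shares. With them as a block in the fit 1342 genes (13.5%) were higher and 719 (7.24%) lower. Of the genes higher in U0126 embryos, 84.7% had a level of at least 5 on both control arrays of day 1.5, against 50.2% of the lower genes and 75.8% of all tested genes. On the control arrays of day 3.5 the shares were 67.4% of the higher genes, 90.2% of the lower genes and 79.4% of all. The plot of the difference against the mean level shows called genes over most of the range of levels.

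**Figure D1:**
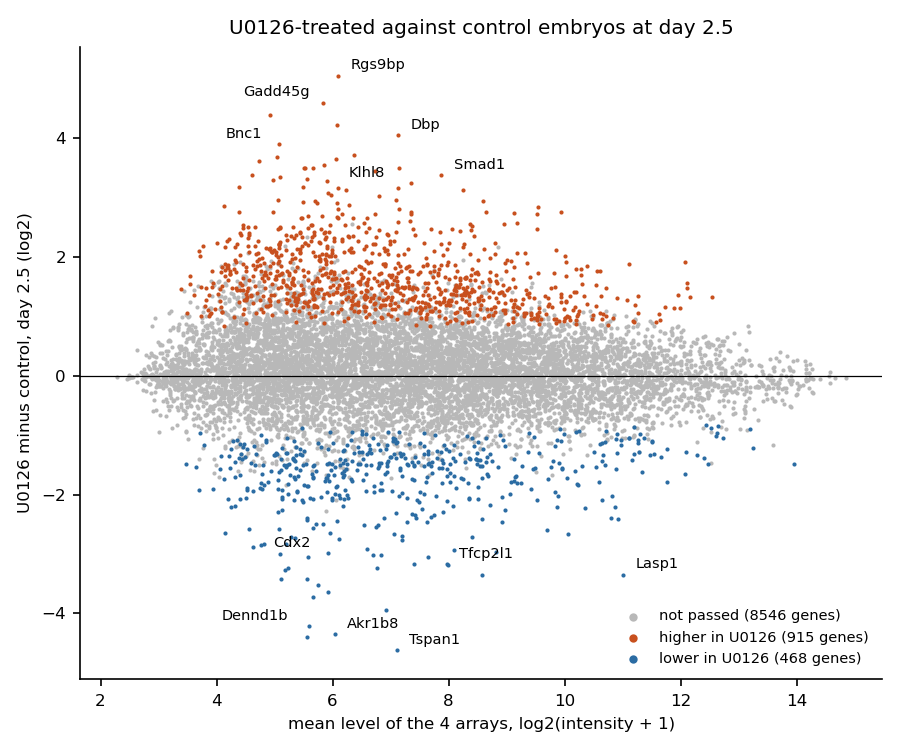
Difference between U0126 and control embryos at day 2.5 (y axis, log2) against the mean level of the 4 arrays (x axis, log2(intensity + 1)), 1 point per tested gene. The 915 genes called higher (orange) and the 468 called lower (blue) spread over most levels, and grey points are genes that did not pass.

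The 12 largest rises, ranked with values under 5 raised to 5, held signalling and transport genes and several genes that were highest at day 1.5. Rgs9bp, which anchors the G-protein regulator RGS9 to membranes in photoreceptors, had levels of 9.24 and 8.02 in U0126 embryos and 3.49 and 3.66 in controls. The difference was 5.06 ± 0.36 (adjusted p = 2.23e-04), at least 3.63 against a level of 5. Only the U0126 arrays were above 5 for this gene, in any group of the series, so it passed the filter through them alone. Smad1, a transcription factor of BMP signalling, reached 10.06 and 9.06 in U0126 embryos, against 6.76 and 5.60 in controls (3.38 ± 0.44, adjusted p = 0.00197). Slc43a2, for an amino acid transporter, stood at 9.33 and 7.05 in U0126 embryos and 3.82 and 4.10 in controls (4.23 ± 0.60, adjusted p = 0.00252, at least 3.19). Its U0126 arrays lay apart from each other, but both were above the controls.

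Trim61, Klhl8, Cbln1 and Tmprss11a had their highest levels of the series on the arrays of day 1.5. Tmprss11a, a serine protease gene, had 11.23 and 11.39 at day 1.5, 7.85 and 8.61 in U0126 embryos and 4.60 and 4.42 in controls of day 2.5. It differed by 3.72 ± 0.31 (adjusted p = 2.68e-04, at least 3.23). Klhl8, an adaptor of cullin ubiquitin ligases, had 12.21 and 12.34 at day 1.5 and then 9.04 and 8.92 in U0126 embryos, against 5.32 and 6.15 in controls (3.24 ± 0.32, adjusted p = 6.60e-04). Trim61 differed by 3.50 ± 0.42 (adjusted p = 0.00139) and Cbln1, a secreted organiser of synapses, by 3.45 ± 0.41 (adjusted p = 0.00139). In these genes the U0126 level lay between that of day 1.5 and that of the day 2.5 controls. Fam122b ran the other way in time. Its controls had 5.02 and 5.44 at day 1.5 and 8.67 and 8.81 at day 3.5, and U0126 embryos with 10.07 and 9.55 were above the 6.33 and 7.02 of their controls (3.13 ± 0.31, adjusted p = 6.60e-04). Zxdc, a zinc finger gene, rose by 3.03 ± 0.44 (adjusted p = 0.00275) and Gm17586 by 2.97 ± 0.32 (adjusted p = 9.47e-04).

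Among the 12 largest falls, the tetraspanin gene Tspan1 had levels of 3.69 and 5.90 in U0126 embryos, against 9.70 and 9.14 in controls (-4.62 ± 0.62, adjusted p = 0.00206). Akr1b8, an aldo-keto reductase that detoxifies aldehydes, was near background in treated embryos, with 3.72 and 4.00, while the controls had 8.40 and 8.02. It fell by at least 3.21 against a level of 5 (fitted -4.35 ± 0.41, adjusted p = 6.27e-04). Lasp1, which binds actin at sites of adhesion, stood at 9.01 and 9.65 under U0126, against 12.63 and 12.72 in controls, a difference of -3.35 ± 0.47 (adjusted p = 0.00236). The endocytic adaptor gene Dab2 had 7.59 and 6.22 in U0126 embryos and 10.50 and 10.01 in controls (-3.35 ± 0.51, adjusted p = 0.00326). Frmd4b, a FERM domain scaffold, differed by -3.95 ± 0.59 (adjusted p = 0.00284) and the aminopeptidase gene Enpep by -3.17 ± 0.55 (adjusted p = 0.00560, but 0.0505 without control replicate 1). Energy genes that fell were Ckmt1, the mitochondrial creatine kinase (-3.06 ± 0.40, adjusted p = 0.00197), and Oxct1, which opens the use of ketone bodies (-2.94 ± 0.40, adjusted p = 0.00206). Nufip2, an RNA-binding partner of the fragile X protein, differed by -2.96 ± 0.49 (adjusted p = 0.00447), although another of its probe sets gave 0.01. Krt8, Tfcp2l1 and Id3 complete the 12 and are described with their groups.

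The gene lists were read by their counts, beside 9.22% higher and 4.71% lower among all tested genes and the median of 0.11, and a median given beside a number of tested members is that of their differences. The 41 lists held 984 different tested genes, of which 95 were higher and 74 lower in U0126 embryos. The larger direction turned over with the scaling, 59 higher and 95 lower after centring and 60 and 77 after quantile normalization. Their total of 169 was 105, 132, 51 and 73 in the 4 leave-outs, so control replicate 1 mattered most. Among lists with at least 10 tested members, the largest shares of lower members were in the Hippo, primitive endoderm and trophectoderm lists, as the plot of list members called shows. The largest shares of higher members were in the maternal oocyte, G-protein regulator, DNA methylation and clock lists, of which the G-protein regulators also had 2 lower of 10 and DNA methylation genes 3 lower of 17.

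**Figure D2:**
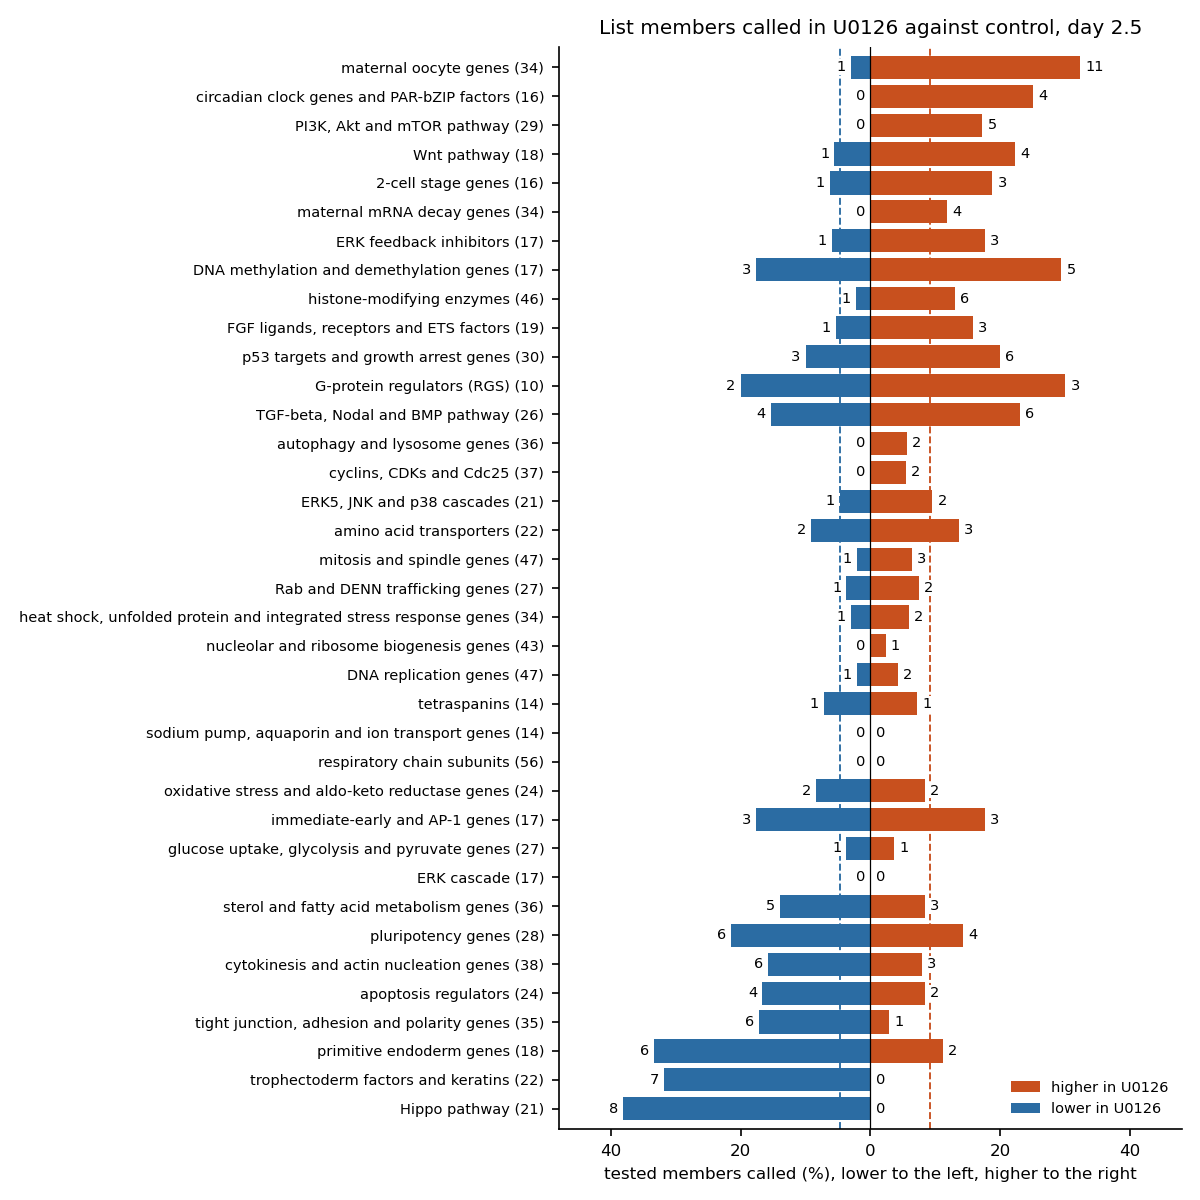
Share of the tested members of 37 gene lists called higher (orange, to the right) or lower (blue, to the left) in U0126 against control embryos at day 2.5, with the number of members beside each bar and the number tested after each name. Dashed lines mark the shares of all tested genes, 9.22% higher and 4.71% lower; the Hippo list has 8 lower and 0 higher members, the maternal oocyte list 11 higher and 1 lower.

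Feedback inhibitors of ERK had few tested members, with the higher share above that of all genes and the lower share close to it. Of 17 tested, 3 were higher (2, 4, 2 and 1 in the 4 leave-outs) and 1 lower (1, 2, 0 and 1), with a median of 0.50. Dusp7, a phosphatase that inactivates ERK, had 6.47 and 6.46 in U0126 embryos and 4.75 and 3.90 in controls (2.14 ± 0.38, adjusted p = 0.00627, at least 1.47). Spry4, an inhibitor of signalling from receptor tyrosine kinases, had 6.44 and 6.61 in U0126 embryos and 5.21 and 4.91 in controls (1.46 ± 0.29, adjusted p = 0.00965, but 0.0646 without control replicate 2). Both genes were far higher at day 1.5, with 10.13 and 10.31 for Dusp7 and 9.90 and 10.59 for Spry4. Spry1 was higher (1.25 ± 0.37, adjusted p = 0.0492, but 0.0921 to 0.210 in the 4 leave-outs, 0.0833 after centring and 0.110 after quantile normalization). Spred1, an inhibitor of Raf activation, was lower at 7.05 and 7.70 in U0126 embryos, against 9.21 and 9.01 in controls (-1.74 ± 0.31, adjusted p = 0.00607, but 0.0512 without control replicate 1). Dusp6, the phosphatase most often read as a sign of ERK activity, had 5.68 and 5.14 in U0126 embryos and 6.46 and 5.95 in controls and did not pass (-0.80 ± 0.34, adjusted p = 0.147), though its arrays did not overlap.

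Immediate-early genes were split, with 3 of 17 higher (2, 4, 2 and 2 in the 4 leave-outs), 3 lower (2, 2, 1 and 1) and a median of 0.29. With a level minimum of 6 the counts were 1 higher and 3 lower. Egr1, a zinc finger factor that ERK induces within minutes in other cells, had 8.02 and 6.35 in U0126 embryos and 4.39 and 4.14 in controls. It rose (2.92 ± 0.48, adjusted p = 0.00459, at least 2.18), and day 1.5 controls had 8.33 and 9.06. Fos, a subunit of the AP-1 factor, had 6.29 and 5.12 in U0126 embryos and 3.74 and 4.16 in controls (1.76 ± 0.37, adjusted p = 0.0128, but 0.0625 without U0126 replicate 1 and 0.0931 without control replicate 1, at least 0.71). Egr2, a relative of Egr1, had 5.17 and 5.06 in U0126 embryos and 4.00 and 3.67 in controls (1.28 ± 0.26, adjusted p = 0.0108, but 0.0779 without control replicate 2, at least 0.11). Only the U0126 arrays were above 5 for Egr2, so it passed the filter through them alone. Myc, a driver of growth and ribosome production, went the other way with 6.02 and 6.69 in U0126 embryos and 8.00 and 8.09 in controls (-1.69 ± 0.28, adjusted p = 0.00447). Myc was higher in the day 2.5 controls than on any other array of the series, and day 1.5 controls had 5.72 and 5.84. Srf, the factor that recruits ERK targets through serum response elements, was lower (-1.48 ± 0.30, adjusted p = 0.0115, but 0.0524 without U0126 replicate 2, 0.0705 without control replicate 1 and 0.0567 without control replicate 2). Nr4a1, an orphan nuclear receptor gene, was lower (-1.27 ± 0.28, adjusted p = 0.0158, but 0.0624 without U0126 replicate 1, 0.106 without control replicate 1 and 0.0552 without control replicate 2, at least 1.15).

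The cascade itself gave 0 calls among 17 tested genes, from limma at an adjusted p under 0.05, with a median of 0.13; 3 had an unadjusted p under 0.05, and the replicate block gave 2 higher and 1 lower. Map2k1, which encodes MEK1, the target of U0126, had 8.74 and 8.61 in U0126 embryos and 8.71 and 8.75 in controls (-0.06 ± 0.25, adjusted p = 0.922). Map2k2, for MEK2, had 9.67 and 9.13 in U0126 embryos and 10.64 and 9.95 in controls (-0.90 ± 0.42, adjusted p = 0.190) and passed with the block (adjusted p = 0.0296). An mRNA level says nothing of the activity of these kinases.

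Among FGF ligands, receptors and ETS factors 3 of 19 (median 0.08) were higher (2, 3, 2 and 3 in the 4 leave-outs) and 1 lower (0, 1, 0 and 0), and the block gave 5 and 2. Fgf4, the ligand that the early epiblast sends to the other lineages, had 7.48 and 8.70 in U0126 embryos and 5.24 and 5.47 in controls (2.73 ± 0.37, adjusted p = 0.00206). Controls of day 1.5 had 7.43 and 7.58 and those of day 3.5 5.01 and 5.15, so the U0126 level was that of the earlier day or above it. Ets2, a transcription factor that ERK phosphorylates, rose to 5.53 and 5.20, against 2.72 and 3.40 in controls (2.30 ± 0.34, adjusted p = 0.00282, at least 0.37). Pdgfra, the receptor that marks primitive endoderm, was lower (-1.78 ± 0.49, adjusted p = 0.0389, but 0.199 without U0126 replicate 1, 0.0886 without control replicate 1 and 0.191 without control replicate 2). Etv5, an ETS factor downstream of FGF, had 7.39 and 6.63 in U0126 embryos and 6.63 and 5.65 in controls and passed only with the block (0.87 ± 0.42, adjusted p = 0.213, and 0.0464 with it).

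The parallel cascades of ERK5, JNK and p38 had 2 of 21 (median 0.26) higher (2, 1, 0 and 1 in the 4 leave-outs) and 1 lower (0, 0, 0 and 0), or 4 and 1 with the block. Mapk14, which encodes p38 alpha, had 10.42 and 10.61 in U0126 embryos and 8.98 and 9.08 in controls (1.49 ± 0.27, adjusted p = 0.00730, but 0.0560 without control replicate 1). G-protein regulators gave 3 higher (2, 2, 2 and 2) and 2 lower (0, 1, 0 and 0) of 10 (median 0.29). Besides Rgs9bp, Rgs17, which speeds the shut-off of G proteins, had 6.19 and 7.60 in U0126 embryos and 3.07 and 3.33 in controls (3.69 ± 0.41, adjusted p = 0.00109, at least 1.89). Its day 1.5 arrays read 9.74 and 10.35, so Rgs17 had been high a day earlier while Rgs9bp had not. Gpsm2, which orients the spindle, was higher (1.25 ± 0.34, adjusted p = 0.0356, but 0.0643 to 0.209 in the 4 leave-outs, 0.0885 after centring and 0.0896 after quantile normalization). Its relative Gpsm1 was lower (-1.72 ± 0.45, adjusted p = 0.0324, but 0.0576 to 0.188 in the 4 leave-outs).

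Clock genes rose in 4 of 16 tested members (4, 5, 2 and 3 in the 4 leave-outs) and fell in 0, with a median of 0.72. The count was 4 also after centring and after quantile normalization. It was 5 with the replicate block, 3 with no filter and 2 with a level minimum of 6. Dbp and Tef are PAR-bZIP factors through which the clock drives its output genes. Dbp had 9.32 and 9.0 in U0126 embryos and 6.11 and 4.08 in controls (4.06 ± 0.58, adjusted p = 0.00244), and its control arrays were further apart than the U0126 arrays. Tef had 7.89 and 7.44 in U0126 embryos and 5.62 and 5.33 in controls (2.19 ± 0.34, adjusted p = 0.00346). Per1, a repressor of the clock's own loop, had 7.01 and 5.11 in U0126 embryos and 4.13 and 3.96 in controls (2.01 ± 0.49, adjusted p = 0.0233, but 0.0723 without U0126 replicate 1, 0.0903 without control replicate 1 and 0.105 without control replicate 2, at least 1.06). Bhlhe40, another repressor of the loop, had 6.60 and 5.83 in U0126 embryos and 3.85 and 4.08 in controls (2.25 ± 0.40, adjusted p = 0.00642, but 0.0501 without control replicate 1, at least 1.21). Per1 was below 5 on all arrays except those of U0126 embryos, so it passed the filter through them alone.

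Growth arrest and p53 target genes had 6 of 30 members higher (4, 5, 2 and 3 in the 4 leave-outs), 3 lower (2, 2, 1 and 1) and a median of 0.46. The 3 Gadd45 genes, whose small acidic proteins act on stress kinases and cyclin-dependent kinase, were all higher. Gadd45g had 9.17 and 7.10 in U0126 embryos and 3.57 and 3.49 in controls (4.61 ± 0.54, adjusted p = 0.00135, at least 3.13). Gadd45a stood at 5.52 and 5.99 in U0126 embryos and 3.78 and 3.59 in controls (2.07 ± 0.32, adjusted p = 0.00342, at least 0.75). Gadd45b was at 9.44 and 8.38 in U0126 embryos and 7.09 and 6.98 in controls (1.87 ± 0.42, adjusted p = 0.0175, but 0.102 without U0126 replicate 1, 0.0794 without control replicate 1 and 0.0831 without control replicate 2). They differed in time, since Gadd45a was highest at day 1.5 with 7.93 and 7.29 while Gadd45g had 4.09 and 3.86 there. Ccng2, an unusual cyclin linked to cell cycle exit, had 7.57 and 7.77 in U0126 embryos and 4.67 and 4.35 in controls (3.16 ± 0.57, adjusted p = 0.00670, at least 2.67). Sesn1, a stress-induced inhibitor of mTOR, was higher (1.28 ± 0.26, adjusted p = 0.0109, but 0.0874 without control replicate 1), as was Mdm2, the ubiquitin ligase of p53 (1.43 ± 0.32, adjusted p = 0.0161, but 0.0736 without U0126 replicate 2, 0.0842 without control replicate 1 and 0.0758 without control replicate 2). Btg1, an antiproliferative gene, went the other way with 8.92 and 10.28 in U0126 embryos and 11.87 and 12.11 in controls (-2.39 ± 0.44, adjusted p = 0.00718). Cdkn1a, which encodes the inhibitor p21, had 8.78 and 8.08 in U0126 embryos and 8.75 and 8.48 in controls (-0.18 ± 0.33, adjusted p = 0.786).

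Promoter windows of RefSeq (GRCm38.p6, 250 bases before to 50 after a gene's start) are shown for 2 clock genes that rose, because E-boxes are the sites through which the clock acts, and for Gadd45g, the arrest gene that rose most. The E-box CACGTG reads the same on both strands and is set in capitals. It was in 7.15% of all 32851 windows, and in 14.5% of the genes called higher, 10.2% of those called lower and 12.4% of all tested genes that had a window. Of the 4 clock genes called, 3 had a window and 2 held the E-box, Per1 in 1 of 2 windows and Tef in both of 2, while Dbp had none; Bhlhe40 had no window in the table. Among the 14 tested members of the clock list with a window, 4 held it (28.6%). A match is a description of letters and not of binding. Tef is at chr15:81802423-81802722 and Per1 at chr11:69098699-69098998 on the plus strand, and Gadd45g at chr13:51846425-51846724 on the plus strand. The motif starts 127 bases before the gene's start in Tef, 166 in Per1 and 142 in Gadd45g.
Tef: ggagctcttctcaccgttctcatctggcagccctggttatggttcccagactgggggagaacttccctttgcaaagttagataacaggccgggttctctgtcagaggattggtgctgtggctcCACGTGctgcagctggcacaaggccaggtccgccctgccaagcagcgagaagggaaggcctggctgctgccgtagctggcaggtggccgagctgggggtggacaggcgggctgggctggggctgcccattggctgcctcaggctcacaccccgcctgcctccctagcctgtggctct
Per1: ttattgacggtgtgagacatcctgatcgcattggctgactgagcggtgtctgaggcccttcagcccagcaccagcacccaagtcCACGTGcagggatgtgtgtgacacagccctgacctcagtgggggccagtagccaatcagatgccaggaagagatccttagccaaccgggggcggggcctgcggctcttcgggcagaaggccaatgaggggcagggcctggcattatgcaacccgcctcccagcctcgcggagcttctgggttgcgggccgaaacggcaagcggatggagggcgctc
Gadd45g: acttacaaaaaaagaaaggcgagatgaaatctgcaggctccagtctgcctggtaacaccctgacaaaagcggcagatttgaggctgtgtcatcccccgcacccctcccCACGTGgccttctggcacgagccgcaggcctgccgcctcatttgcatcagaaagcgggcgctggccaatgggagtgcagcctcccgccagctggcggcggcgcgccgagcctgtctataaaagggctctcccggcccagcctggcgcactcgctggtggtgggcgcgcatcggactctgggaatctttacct

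Few cell cycle genes passed. Cyclins, CDKs and Cdc25 phosphatases gave 2 higher (3, 2, 2 and 1 in the 4 leave-outs) and 0 lower of 37 (median 0.23). They were Ccng2 and Cdc25c, an activator of the mitotic kinase (1.07 ± 0.23, adjusted p = 0.0131, but 0.0759 without control replicate 1 and 0.0687 without control replicate 2, 0.0532 after centring). Ccnd1, the cyclin that growth factors induce through ERK in many cells, had 6.20 and 5.57 in U0126 embryos and 4.73 and 5.52 in controls (0.76 ± 0.40, adjusted p = 0.253). Another of its probe sets passed as higher in limma's fit over all probe sets (2.17 ± 0.35, adjusted p = 0.00478), with means of 5.58 in U0126 embryos and 3.41 in controls. A further probe set did not pass (0.63 ± 0.59, adjusted p = 0.562). Replication genes had 2 of 47 (median 0.10) higher (0, 1, 0 and 0) and 1 lower (1, 0, 1 and 0), or 5 and 4 with the block. Cdc7, the kinase that fires origins, was higher (1.69 ± 0.40, adjusted p = 0.0204, but 0.0505 to 0.100 in the 4 leave-outs). Mitosis genes had 3 of 47 (median 0.08) higher (2, 1, 0 and 1) and 1 lower (1, 0, 0 and 0), or 5 and 3 with the block. Spc25 of the kinetochore was higher (1.33 ± 0.26, adjusted p = 0.00970, but 0.0807 without control replicate 1), and Fbxo5, an inhibitor of the anaphase-promoting complex, lower (-1.02 ± 0.24, adjusted p = 0.0206, but 0.0723 without U0126 replicate 2, 0.143 without control replicate 1 and 0.0563 without control replicate 2). Shares of both lists were below those of all genes in the higher direction.

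Hippo signalling, in which LATS kinases keep YAP away from the TEAD factors, directs the outer cells of the embryo to trophectoderm when it is low. Of 21 tested members 8 were lower and 0 higher, with a median of -0.66, beside 4.71% lower among all genes. The count of lower members was 3, 2, 0 and 2 in the 4 leave-outs, so that none passed without control replicate 1, and it was 9 after centring and 8 after quantile normalization. It was 10 with the replicate block, 5 with array weights and 3 with no filter. Ccn2, a secreted matrix protein and a common readout of YAP, had 8.12 and 8.52 in U0126 embryos and 10.12 and 9.88 in controls (-1.68 ± 0.35, adjusted p = 0.0121, but 0.0652 without U0126 replicate 1 and 0.0818 without control replicate 1). Amotl2, which tethers YAP at junctions and is itself a YAP target, had 7.71 and 6.73 in U0126 embryos and 9.01 and 8.68 in controls (-1.63 ± 0.36, adjusted p = 0.0161, but 0.0735 without U0126 replicate 2, 0.106 without control replicate 1 and 0.0531 without control replicate 2). Its relative Amot had 7.50 and 7.74 in U0126 embryos, against 10.08 and 9.51 (-2.18 ± 0.57, adjusted p = 0.0316, but 0.0693 to 0.168 in the 4 leave-outs). Lats2, a kinase of the pathway, had 6.83 and 7.16 in U0126 embryos, against 8.76 and 8.82 (-1.80 ± 0.46, adjusted p = 0.0282, but 0.0548 to 0.117 in the 4 leave-outs). Tead1, a partner of YAP on DNA, was lower (-1.45 ± 0.33, adjusted p = 0.0181, but 0.0715 without U0126 replicate 2, 0.0828 without control replicate 1 and 0.0871 without control replicate 2), while another of its probe sets gave 0.12. At day 1.5 Ccn2, Amotl2, Lats2 and Tead1 had all been below 5, so U0126 embryos lay between the controls of day 1.5 and of day 2.5. The other 3 members called, Tead4, Vgll4 and Ccn1, are named here after their values were seen.

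Promoters of Amotl2 and Lats2 are shown as Hippo members that fell and hold the TEAD motif GGAATG, searched on both strands and set in capitals (CATTCC where it lies on the other strand). It was in 14.7% of all windows and in 12.8% of the genes called higher, 16.8% of those called lower and 13.8% of all tested genes that had a window. Of the 8 Hippo genes that fell, 5 had a window and 4 held the motif, among the 18 tested members with a window 10 held it, and Ccn2 and Tead1 are named only. Amotl2 is at chr9:102717554-102717853 on the plus strand, with the motif 65 bases before the start. Lats2 held the motif in 1 of 2 windows, and the window shown is the one with it. That window is at chr14:57746074-57746373 on the minus strand, with the motif from base 5 after the start. The same window holds 1 E-box, and the motifs do not overlap.
Amotl2: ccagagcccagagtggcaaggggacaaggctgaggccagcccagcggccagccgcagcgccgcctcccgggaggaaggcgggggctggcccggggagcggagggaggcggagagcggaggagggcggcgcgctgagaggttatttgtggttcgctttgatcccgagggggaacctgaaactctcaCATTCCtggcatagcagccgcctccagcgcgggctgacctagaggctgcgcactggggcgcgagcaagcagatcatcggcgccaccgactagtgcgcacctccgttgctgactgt
Lats2: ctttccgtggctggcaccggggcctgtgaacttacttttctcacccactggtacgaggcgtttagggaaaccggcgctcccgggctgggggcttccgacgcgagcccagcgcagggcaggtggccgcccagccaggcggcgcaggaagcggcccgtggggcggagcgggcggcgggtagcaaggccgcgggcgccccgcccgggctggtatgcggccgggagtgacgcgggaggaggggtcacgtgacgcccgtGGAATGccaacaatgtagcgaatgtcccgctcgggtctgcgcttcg

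Trophectoderm genes were lower in 7 of 22 tested (6, 4, 3 and 7 in the 4 leave-outs) and higher in 0, with a median of -0.43. Cdx2, the homeobox factor that fixes the lineage, had 4.51 and 4.34 in U0126 embryos and 7.69 and 7.13 in controls (-2.99 ± 0.35, adjusted p = 0.00135, at least 2.41). Krt8 and Krt18 build the first intermediate filaments of the embryo. Krt8 had 6.95 and 5.86 in U0126 embryos and 9.98 and 9.19 in controls (-3.19 ± 0.42, adjusted p = 0.00199), and Krt18 6.79 and 4.85, against 9.02 and 8.13 (-2.76 ± 0.59, adjusted p = 0.0131, but 0.0503 without U0126 replicate 2 and 0.0982 without control replicate 1). These 3 genes were below 5 on the day 1.5 arrays, and U0126 embryos were between those and the day 2.5 controls.

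With a median of -0.12, junction, adhesion and polarity genes were lower in 6 of 35 (3, 4, 0 and 1 in the 4 leave-outs) and higher in 1, or 8 and 3 with the block. Cldn4, a claudin of tight junctions, had 5.89 and 4.74 in U0126 embryos and 8.93 and 7.74 in controls (-3.02 ± 0.56, adjusted p = 0.00729, but 0.0639 without control replicate 1). Cdh1, the E-cadherin of compaction, had 8.96 and 9.41 in U0126 embryos and 10.64 and 10.82 in controls (-1.54 ± 0.31, adjusted p = 0.0111, but 0.0613 without U0126 replicate 1, 0.0560 without control replicate 1 and 0.0652 without control replicate 2). Ocln, a tight junction protein, was lower (-1.44 ± 0.32, adjusted p = 0.0150, but 0.0825 without U0126 replicate 1, 0.0997 without control replicate 1 and 0.0545 without control replicate 2), and another of its probe sets gave 0.05. Marveld3, a relative of occludin, was higher (1.41 ± 0.26, adjusted p = 0.00718, but 0.0534 without control replicate 2). The sodium pump and aquaporin genes, which later fill the blastocoel, gave 0 calls among 14 (median -0.07) in limma's test, with 2 at an unadjusted p under 0.05, and 1 lower after centring or quantile normalization.

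Cytokinesis and actin genes had 6 of 38 lower (3, 5, 2 and 3 in the 4 leave-outs) and 3 higher (1, 2, 1 and 1), with a median of -0.24. The formin gene Diaph2, whose protein nucleates straight actin filaments, had 2.47 and 4.25 in U0126 embryos and 7.75 and 7.75 in controls (-4.39 ± 0.49, adjusted p = 0.00109, at least 2.75). Fmnl2, another formin, had 5.62 and 4.55 in U0126 embryos and 7.23 and 7.30 in controls (-2.19 ± 0.34, adjusted p = 0.00362). Fmn2, a formin of the oocyte spindle, passed as higher (adjusted p = 0.00357) but had all 4 arrays below 5, 4.88 and 4.75 in U0126 embryos and 3.09 and 2.99 in controls, so no size is given; day 1.5 controls had 8.73 and 9.26. Myh10, a non-muscle myosin of the contractile ring, was lower (-1.52 ± 0.29, adjusted p = 0.00815, but 0.0719 without control replicate 1). In the list of Rab and DENN genes, which govern vesicle traffic, 2 of 27 (median 0.14) were higher (2, 1, 1 and 2) and 1 lower (2, 1, 1 and 1). Rab21, of early endosomes, had 9.05 and 8.84 in U0126 embryos and 6.47 and 6.46 in controls (2.48 ± 0.24, adjusted p = 6.60e-04). Dennd1b, an activator of Rab35, had 3.30 and 3.66, against 7.63 and 7.77 (-4.22 ± 0.31, adjusted p = 2.23e-04, at least 2.70).

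**Figure D3:**
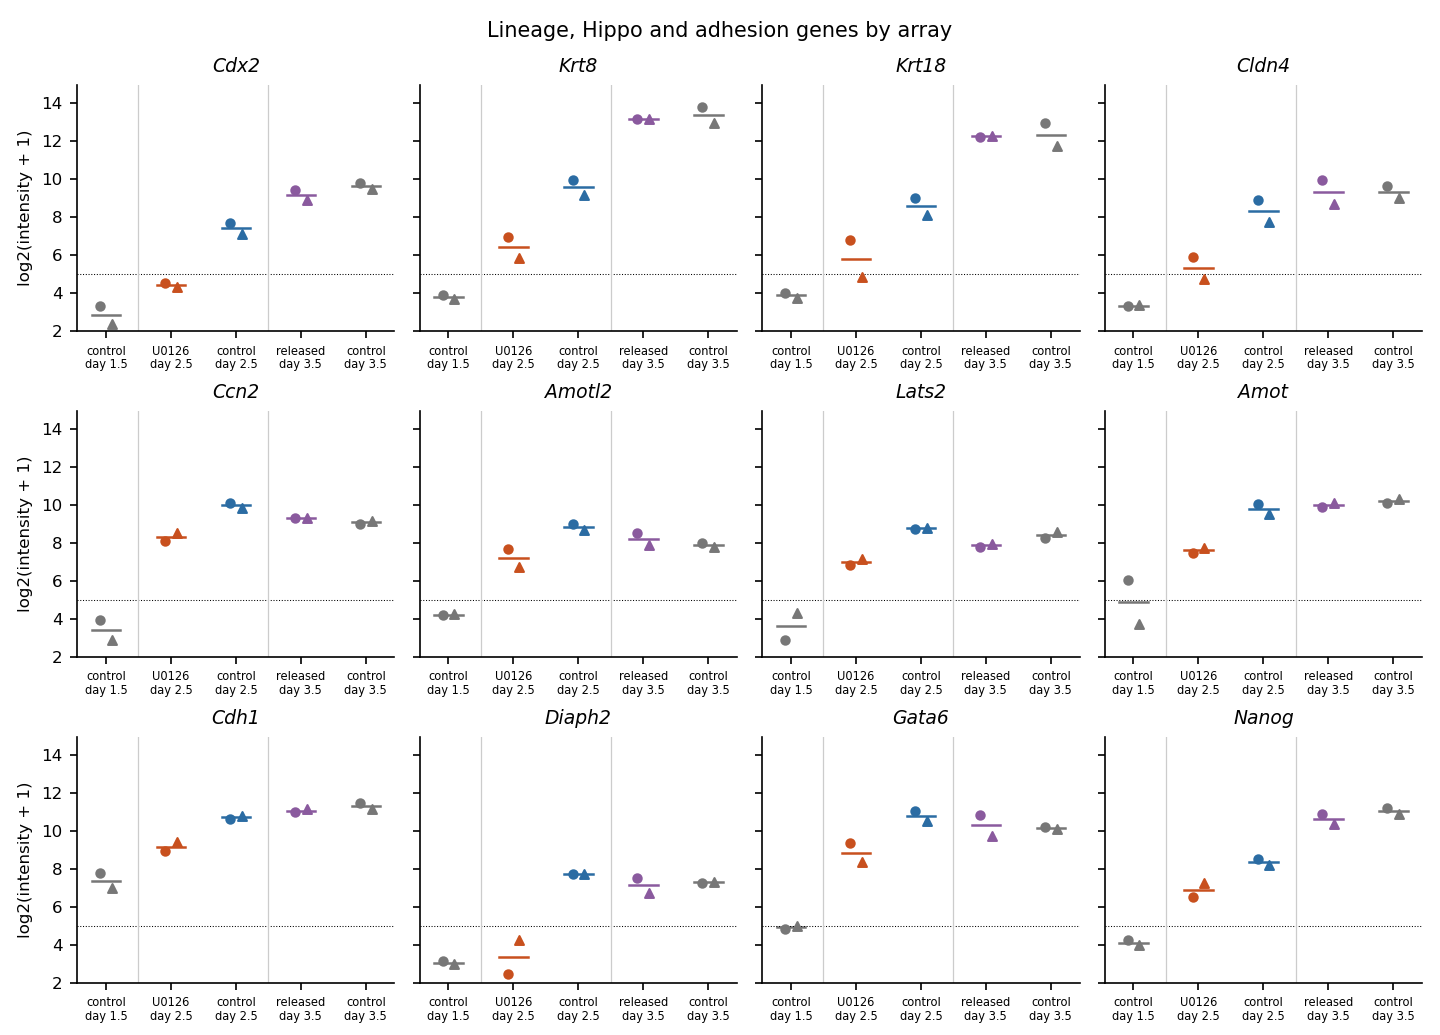
Levels, log2(intensity + 1), of 12 lineage, Hippo and adhesion genes on each array (circle, replicate 1; triangle, replicate 2; line, mean) in controls of day 1.5, U0126 and control embryos of day 2.5, and released and control embryos of day 3.5; the dotted line marks 5. In each gene both U0126 arrays (orange) lie below both control arrays of the same day (blue), and at day 3.5 the means of released and control embryos differ by no more than the 0.54 of Lats2.

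Pluripotency genes had 6 of 28 (median -0.17) lower (2, 5, 2 and 3 in the 4 leave-outs) and 4 higher (3, 3, 3 and 2). Nanog, a factor of the epiblast, had 6.53 and 7.27 in U0126 embryos and 8.56 and 8.23 in controls (-1.49 ± 0.32, adjusted p = 0.0136, but 0.0787 without U0126 replicate 1 and 0.0982 without control replicate 1). Tfcp2l1, a factor of the naive state, had 6.31 and 6.45 in U0126 embryos and 9.85 and 9.25 in controls (-3.17 ± 0.38, adjusted p = 0.00135). Pou5f1, present from the oocyte on, was lower (-1.60 ± 0.46, adjusted p = 0.0425, but 0.0549 to 0.255 in the 4 leave-outs). In the other direction Il6st, the shared receptor subunit of the LIF family, had 5.94 and 5.52 in U0126 embryos and 3.19 and 3.19 in controls (2.54 ± 0.34, adjusted p = 0.00206, at least 0.73). Klf17, an early Krüppel-like factor, was higher (1.57 ± 0.45, adjusted p = 0.0428, but 0.0970 to 0.192 in the 4 leave-outs, 0.0823 after centring). Sox2 had 5.99 and 5.66 in U0126 embryos and 3.85 and 4.15 in controls and did not pass (1.82 ± 0.59, adjusted p = 0.0660, and 0.0499 with the block).

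With a median of -0.21, primitive endoderm genes were lower in 6 of 18 (4, 4, 3 and 4 in the 4 leave-outs) and higher in 2 (2, 1, 0 and 0). Gata6, the factor that sets the lineage, had 9.36 and 8.36 in U0126 embryos and 11.08 and 10.56 in controls (-1.96 ± 0.43, adjusted p = 0.0154, but 0.0745 without U0126 replicate 2 and 0.107 without control replicate 1). Its level at day 1.5 was 4.86 and 5.01, and U0126 embryos were closer to their controls than to that level. Lrp2, the endocytic receptor megalin with which Dab2 works, had 6.05 and 5.64 in U0126 embryos, against 9.25 and 7.83 (-2.70 ± 0.43, adjusted p = 0.00407). Col4a1, of the basement membrane, had 5.02 and 5.53 in U0126 embryos, against 6.63 and 6.98 (-1.53 ± 0.27, adjusted p = 0.00584). The 2 higher members were Afp, for a serum protein of later endoderm (2.16 ± 0.47, adjusted p = 0.0144, but 0.0669 without U0126 replicate 2, 0.0886 without control replicate 1 and 0.0571 without control replicate 2, at least 1.01) and the proteoglycan gene Srgn (1.41 ± 0.38, adjusted p = 0.0355, but 0.149 without U0126 replicate 2, 0.0921 without control replicate 1 and 0.173 without control replicate 2, 0.0866 after centring and 0.104 after quantile normalization). Gata4 had 6.43 and 6.54 in U0126 embryos and 6.32 and 5.41 in controls (0.62 ± 0.45, adjusted p = 0.418).

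TGF-beta, Nodal and BMP genes had 6 of 26 (median 0.49) higher (2, 5, 1 and 3 in the 4 leave-outs, 2 after centring) and 4 lower (2, 4, 2 and 3). Of the BMP-responsive Smads, Smad1 was higher as given above and Smad5 was higher (2.11 ± 0.48, adjusted p = 0.0183, but 0.108 without U0126 replicate 1, 0.0869 without control replicate 1 and 0.0803 without control replicate 2, at least 0.99). Id3, a direct target of BMP signalling in many cells, was lower, with 5.24 and 5.13 in U0126 embryos and 8.72 and 7.68 in controls (-3.01 ± 0.41, adjusted p = 0.00206). On the Nodal side the ligand gene Gdf3 had 3.41 and 3.68 in U0126 embryos and 7.32 and 6.29 in controls (-3.27 ± 0.43, adjusted p = 0.00199, at least 1.81). Tdgf1, the co-receptor Cripto, had 6.80 and 7.94, against 9.70 and 9.85 (-2.40 ± 0.48, adjusted p = 0.0104, but 0.0621 without U0126 replicate 1, 0.0560 without control replicate 1 and 0.0577 without control replicate 2). Pcsk6, a convertase that matures Nodal, was lower (-1.74 ± 0.36, adjusted p = 0.0114, but 0.0571 without U0126 replicate 1 and 0.0846 without control replicate 1, at least 1.22).

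Wnt pathway genes gave 4 higher (1, 5, 2 and 1 in the 4 leave-outs, 1 after centring) and 1 lower (1, 1, 1 and 1) of 18 (median 0.55). Among the receptors Fzd4 had 6.70 and 7.19 in U0126 embryos and 4.08 and 3.96 in controls (2.92 ± 0.41, adjusted p = 0.00233, at least 1.94). Sfrp1, a secreted antagonist, had 6.06 and 6.44, against 8.47 and 8.15 (-2.06 ± 0.29, adjusted p = 0.00230). PI3K and mTOR genes gave 5 higher (3, 5, 1 and 1, 2 after centring) and 0 lower of 29 (median 0.20). Tcl1, a maternal cofactor of Akt, had 6.88 and 6.89 in U0126 embryos and 5.83 and 5.34 in controls (1.30 ± 0.26, adjusted p = 0.0113, but 0.0861 without control replicate 2), small beside the 13.33 and 13.73 of day 1.5. Ddit4, an inhibitor of mTOR under stress, was higher (1.66 ± 0.48, adjusted p = 0.0447, but 0.237 without U0126 replicate 1, 0.153 without control replicate 1 and 0.160 without control replicate 2, 0.0589 after centring and 0.0609 after quantile normalization).

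Maternal oocyte genes had 11 of 34 members higher in U0126 embryos, 1 lower and a median of 0.83. The higher count was 9, 8, 4 and 7 in the 4 leave-outs, 6 after centring and 7 after quantile normalization. Btg4, an adaptor of the deadenylase that clears maternal mRNA, had 9.83 and 9.41 in U0126 embryos and 6.97 and 7.35 in controls, with 13.29 and 13.60 at day 1.5 (2.46 ± 0.29, adjusted p = 0.00135). Bnc1, a zinc finger factor of oocytes, had 6.64 and 7.43 in U0126 embryos and 3.02 and 3.24 in controls, with 9.73 and 10.42 at day 1.5 (3.91 ± 0.32, adjusted p = 2.68e-04, at least 2.03). Both stayed well below day 1.5 under U0126. Nlrp4f, of a family of maternal proteins, was higher (2.22 ± 0.42, adjusted p = 0.00809, but 0.0656 without control replicate 1). Khdc3, a partner in the subcortical maternal complex, was the lower one, with 9.33 and 8.42 in U0126 embryos and 11.33 and 10.48 in controls, although day 1.5 controls had only 5.20 and 5.35 (-2.03 ± 0.37, adjusted p = 0.00717, but 0.0639 without control replicate 1).

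Genes of the decay machinery were higher in 4 of 34 (1, 4, 1 and 1 in the 4 leave-outs; median 0.16) and lower in 0. Besides Btg4, they included Cpeb1, which controls polyadenylation in oocytes, with 8.05 and 6.12 in U0126 embryos and 3.97 and 3.85 in controls (3.18 ± 0.65, adjusted p = 0.0117, but 0.0652 without U0126 replicate 1, 0.0631 without control replicate 1 and 0.0595 without control replicate 2, at least 2.08). Zfp36l2, which recruits deadenylases to AU-rich mRNAs, was higher (1.48 ± 0.34, adjusted p = 0.0187, but 0.0948 without U0126 replicate 1, 0.0917 without control replicate 1 and 0.0817 without control replicate 2) although its day 1.5 level, 5.69 and 6.07, was low. The 2-cell genes had 3 of 16 (median 0.80) higher (3, 1, 1 and 1, and 1 after quantile normalization) and 1 lower (0, 0, 0 and 0). Obox3, a homeobox gene of that stage, had 6.34 and 7.28 in U0126 embryos and 4.33 and 4.32 in controls, with 11.45 and 11.74 at day 1.5 (2.49 ± 0.34, adjusted p = 0.00206, at least 1.81). Zfp352 had 8.44 and 8.66 in U0126 embryos and 6.53 and 4.96 in controls (2.81 ± 0.79, adjusted p = 0.0399, but 0.0580 to 0.228 in the 4 leave-outs, 0.0532 after quantile normalization).

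**Figure D4:**
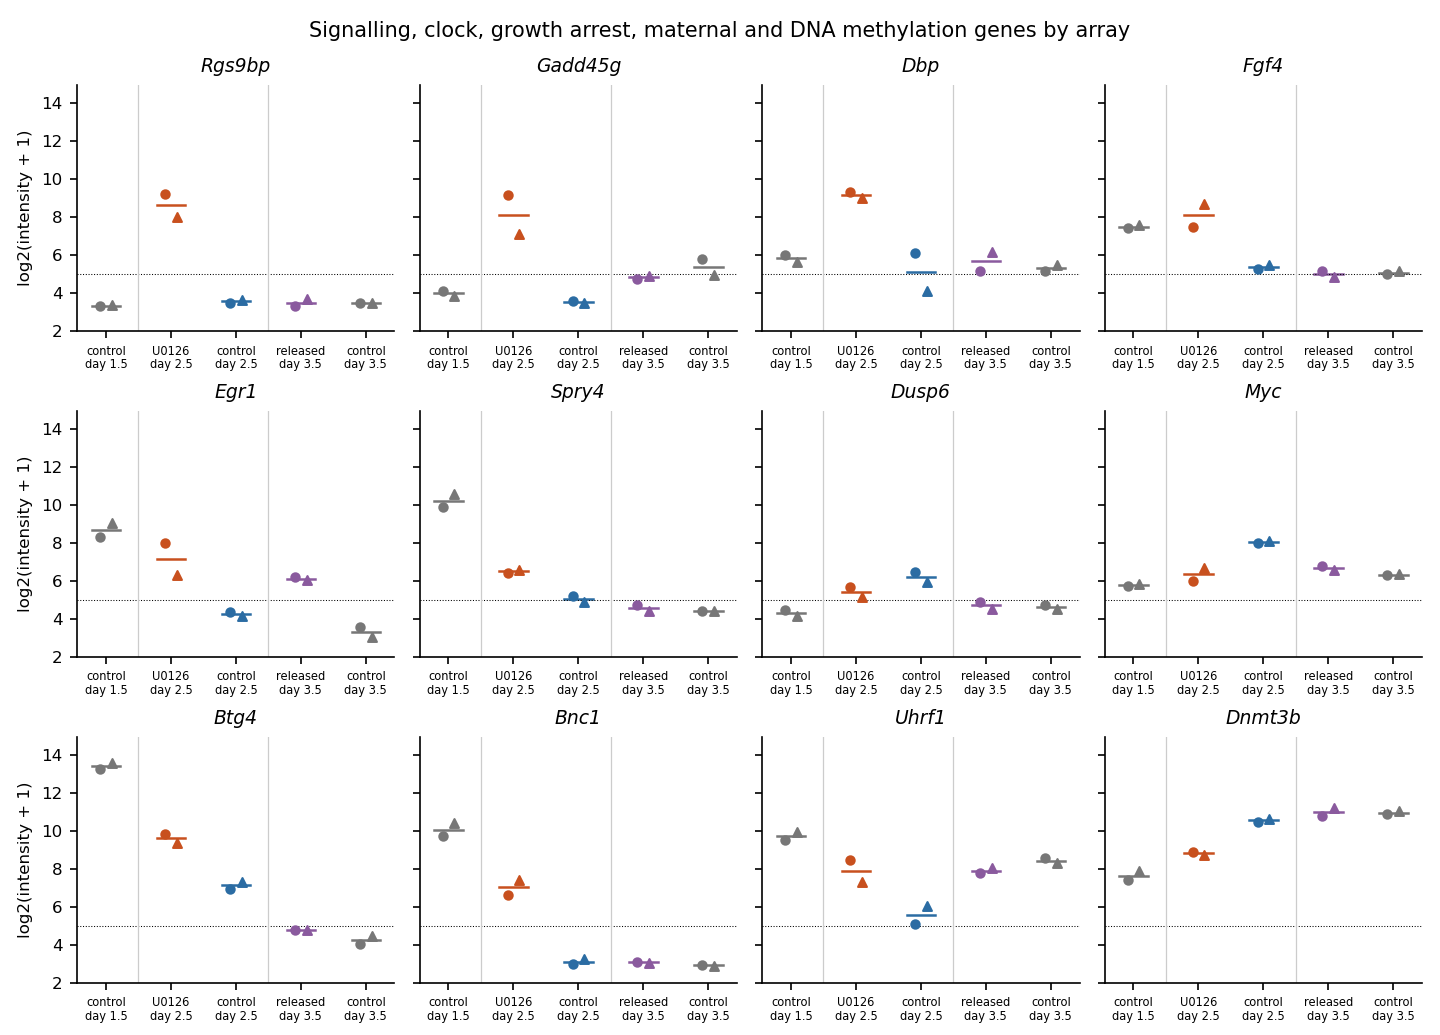
Levels, log2(intensity + 1), of 12 signalling, clock, growth arrest, maternal and DNA methylation genes on each array (circle, replicate 1; triangle, replicate 2; line, mean) in controls of day 1.5, U0126 and control embryos of day 2.5, and released and control embryos of day 3.5; the dotted line marks 5. Rgs9bp and Gadd45g are high in U0126 embryos and low at day 1.5, whereas Btg4 and Bnc1 lie between the controls of day 1.5 and day 2.5.

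DNA methylation genes had 5 of 17 (median -0.02) higher (4, 5, 2 and 4 in the 4 leave-outs) and 3 lower (1, 2, 1 and 1), the same counts after centring and quantile normalization. The maintenance pair was higher. Uhrf1, which brings DNMT1 to newly copied DNA, had 8.50 and 7.34 in U0126 embryos and 5.10 and 6.06 in controls (2.34 ± 0.41, adjusted p = 0.00626, but 0.0560 without control replicate 1). Dnmt1, the maintenance methyltransferase, had 9.04 and 8.85 in U0126 embryos and 6.97 and 7.60 in controls (1.66 ± 0.31, adjusted p = 0.00720, but 0.0658 without control replicate 1). Mbd1, a reader of methylated DNA, had 7.18 and 7.67, against 4.57 and 4.97 (2.65 ± 0.39, adjusted p = 0.00283, at least 2.42). De novo genes and Tet2 were lower. Dnmt3b, a de novo methyltransferase, had 8.91 and 8.76 in U0126 embryos and 10.50 and 10.67 in controls (-1.74 ± 0.27, adjusted p = 0.00336). Its cofactor Dnmt3l was lower (-1.17 ± 0.26, adjusted p = 0.0173, but 0.0879 without U0126 replicate 1, 0.119 without control replicate 1 and 0.0525 without control replicate 2) as was Tet2, which oxidises methylcytosine (-2.31 ± 0.65, adjusted p = 0.0411, but 0.0715 to 0.163 in the 4 leave-outs). In time the groups differed: Uhrf1 and Dnmt1 were at their lowest of the series in the day 2.5 controls, and Dnmt3b was at its lowest at day 1.5 with 7.42 and 7.91.

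Histone-modifying enzymes had 6 of 46 (median 0.06) higher (3, 3, 1 and 1 in the 4 leave-outs, 2 after centring) and 1 lower (1, 0, 0 and 0), or 9 and 3 with the block. Sirt2, a deacetylase of tubulin and histones, had 7.33 and 7.26 in U0126 embryos and 6.09 and 5.60 in controls (1.45 ± 0.25, adjusted p = 0.00560). Kdm1b, a histone demethylase needed in growing oocytes, was higher (1.25 ± 0.26, adjusted p = 0.0118, but 0.0530 without control replicate 1 and 0.0779 without control replicate 2).

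Calls were more frequent than among all genes in the sterol and amino acid lists and less frequent in the other metabolic lists. Sterol and fatty acid genes had 5 of 36 (median 0.02) lower (3, 2, 0 and 2 in the 4 leave-outs) and 3 higher (3, 4, 1 and 3). The carnitine palmitoyltransferases Cpt1a and Cpt2, which carry fatty acids into mitochondria, were higher. Cpt1a had 9.28 and 8.61 in U0126 embryos and 6.88 and 7.17 in controls (1.91 ± 0.33, adjusted p = 0.00528), and Cpt2 differed by 1.72 ± 0.41 (adjusted p = 0.0217, but 0.0869 without U0126 replicate 2 and 0.144 without control replicate 1). Acadl and Acadvl, dehydrogenases that oxidise long fatty acids, were lower, Acadl with 10.45 and 10.82, against 12.04 and 11.80 (-1.28 ± 0.30, adjusted p = 0.0187, but 0.0927 without U0126 replicate 1, 0.117 without control replicate 1 and 0.0602 without control replicate 2) and Acadvl (-1.44 ± 0.38, adjusted p = 0.0333, but 0.0787 without U0126 replicate 1, 0.105 without U0126 replicate 2 and 0.218 without control replicate 1). Dhcr7, the last enzyme of cholesterol synthesis, was lower (-1.29 ± 0.28, adjusted p = 0.0136, but 0.0519 without U0126 replicate 2, 0.0656 without control replicate 1 and 0.0805 without control replicate 2). Of 27 (median 0.08) glucose genes 1 was higher (0, 3, 0 and 0) and 1 lower (3, 1, 0 and 0), or 2 and 4 with the block.

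Pdk3, which shuts pyruvate out of the mitochondrial cycle, was the higher glucose gene with 8.61 and 7.05 in U0126 embryos and 5.41 and 5.08 in controls (2.58 ± 0.60, adjusted p = 0.0198, but 0.117 without U0126 replicate 1, 0.0759 without control replicate 1 and 0.0974 without control replicate 2). Slc2a1, the glucose transporter GLUT1, was the lower one with 6.51 and 4.46, against 8.11 and 7.94 (-2.54 ± 0.53, adjusted p = 0.0118, but 0.0729 without control replicate 1 and 0.0524 without control replicate 2). Amino acid transporters gave 3 higher (1, 1, 2 and 1) and 2 lower (3, 1, 1 and 1) of 22 (median 0.03), or 4 and 5 with the block. Slc6a14, a broad transporter of neutral and cationic amino acids, had 4.23 and 3.95 in U0126 embryos and 6.64 and 5.68 in controls (-2.07 ± 0.35, adjusted p = 0.00482, at least 1.16). Respiratory chain subunits, 56 tested, gave 0 calls in limma's test with a median of -0.17, with 1 at an unadjusted p under 0.05, and the block gave 1 higher. Of 43 (median 0.09) nucleolar genes 1 was higher, Utp15 of the small subunit processome (0.95 ± 0.27, adjusted p = 0.0410, but 0.0593 to 0.255 in the 4 leave-outs, 0.136 after centring and 0.0675 after quantile normalization).

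Oxidative stress and heat shock genes had calls in both directions. Oxidative stress genes had 2 of 24 (median -0.05) higher (0, 4, 0 and 0 in the 4 leave-outs) and 2 lower (1, 1, 1 and 1), or 4 and 4 with the block. Besides Akr1b8, catalase (Cat) was lower (-1.21 ± 0.32, adjusted p = 0.0343, but 0.0805 to 0.166 in the 4 leave-outs). Gclc, which makes the precursor of glutathione, was higher (1.26 ± 0.27, adjusted p = 0.0129, but 0.0544 without U0126 replicate 1, 0.0729 without control replicate 1 and 0.0656 without control replicate 2). Heat shock and unfolded protein genes gave 2 higher (1, 0, 0 and 0) and 1 lower (0, 1, 0 and 1) of 34 (median -0.07), or 3 and 2 with the block. Hspa8, the constitutive chaperone and a first product of the embryonic genome, had 12.79 and 13.64 in U0126 embryos and 14.66 and 14.75 in controls (-1.49 ± 0.34, adjusted p = 0.0177, but 0.0998 without U0126 replicate 1, 0.0810 without control replicate 1 and 0.0861 without control replicate 2). Atf4 and Ddit3 of the integrated stress response had differences of -0.26 ± 0.42 (adjusted p = 0.746) and 0.34 ± 0.31 (adjusted p = 0.520).

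Apoptosis regulators had 2 of 24 (median 0.32) higher (2, 2, 0 and 0 in the 4 leave-outs, 0 after centring) and 4 lower (1, 3, 0 and 1). Bid, which carries the death signal to mitochondria, was higher (1.42 ± 0.35, adjusted p = 0.0248, but 0.109 without U0126 replicate 2, 0.129 without control replicate 1 and 0.0817 without control replicate 2, 0.0574 after centring and 0.0744 after quantile normalization). The lower members included Dapk1, a death-associated kinase (-1.30 ± 0.27, adjusted p = 0.0121, but 0.0856 without control replicate 1, at least 0.87), and the executioner protease Casp6 (-1.40 ± 0.38, adjusted p = 0.0379, but 0.204 without U0126 replicate 1, 0.133 without control replicate 1 and 0.144 without control replicate 2). Lysosome and autophagy genes had 2 of 36 (median 0.04) higher (1, 3, 1 and 0) and 0 lower (1, 0, 0 and 0), or 3 and 3 with the block. Mcoln1, a calcium channel of lysosomes, had 7.34 and 6.65 in U0126 embryos and 5.09 and 4.57 in controls (2.16 ± 0.44, adjusted p = 0.0115, but 0.0661 without U0126 replicate 1 and 0.0745 without control replicate 2), and the sialidase gene Neu1 had 6.08 and 6.13, against 4.37 and 4.31 (1.77 ± 0.35, adjusted p = 0.0102, but 0.0580 without control replicate 1 and 0.0554 without control replicate 2, at least 1.10). Tetraspanins gave 1 higher, Tspan31 (1.37 ± 0.27, adjusted p = 0.00957, but 0.0502 without U0126 replicate 1 and 0.0682 without control replicate 1), and Tspan1 lower of 14 (median 0.16), or 1 and 3 with the block.

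Whether the differences of the arrest were still there 1 day later was tested as the U0126 difference at day 2.5 minus the difference of released from control embryos at day 3.5; these differences share no array. This interaction passed in 298 genes, 3.0% of those tested, 198 positive (1.99%) and 100 negative (1.01%). The excess of positive ones depended on the scaling, with 141 positive and 156 negative after centring and 157 and 144 after quantile normalization. It passed in 692 (6.97%) with the replicate block, and in 48 and 109 without control replicates 1 and 2 of day 2.5. Without released replicates 1 and 2 it passed in 44 and 61, and without control replicates 1 and 2 of day 3.5 in 22 and 153. Released embryos differed from controls of day 3.5 in 31 genes (0.312%), 30 higher (0.302%) and 1 lower (0.0101%), and leaving out arrays was not run for this count. Of the 915 genes higher under U0126, 9 were higher also in released embryos, and of the 468 lower genes 2 were higher there and 0 lower. The median of the released difference was 0.02 over the genes higher at day 2.5 and -0.10 over those lower, beside -0.01 over all genes. The plot of both differences shows them for all genes called at day 2.5.

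**Figure D5:**
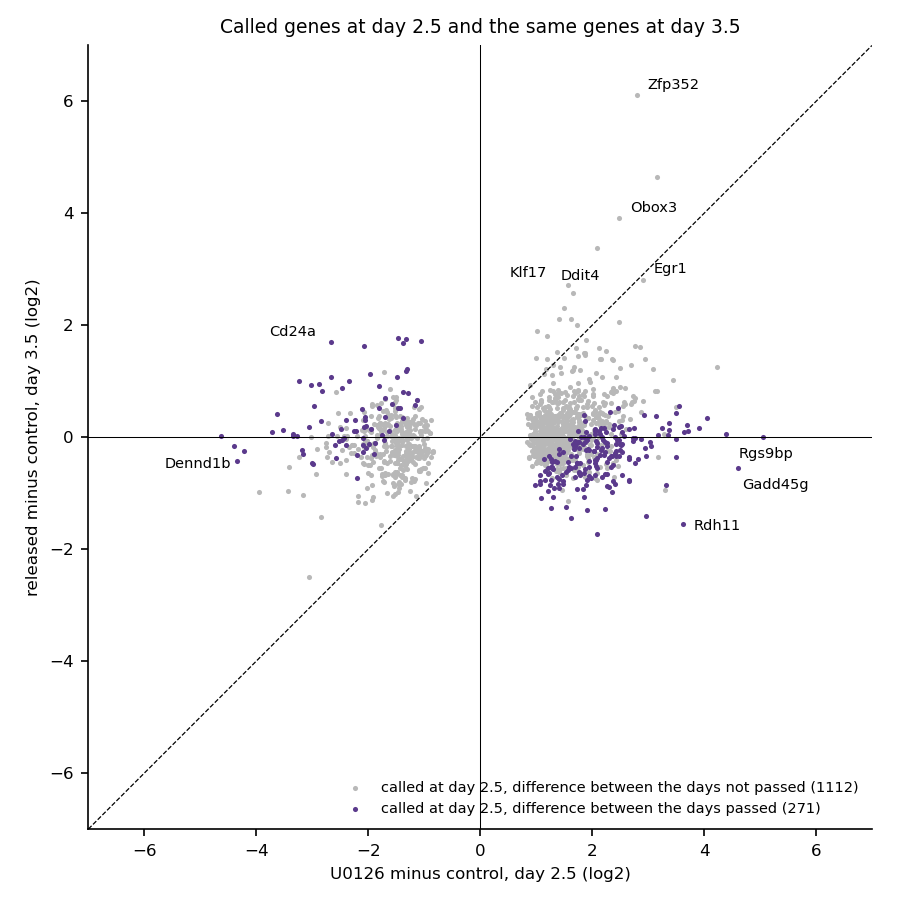
Difference of released from control embryos at day 3.5 (y axis, log2) against the difference of U0126 from control embryos at day 2.5 (x axis, log2) for the 1383 genes called at day 2.5; the dashed line is equality. Purple points are the 271 genes in which the 2 differences themselves differed, 194 to the right of 0 and 77 to the left; the tests behind the points and their colour share the day 2.5 arrays.

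Fitted interactions of genes with a group near background depend on those low values, so the ones described are also given with every array value under 5 raised to 5, a setting chosen after the data were seen and given without a test. Of the 55 named genes with an interaction, 26 had at least 1 group with both arrays under 5. Among the genes with the largest fitted interactions, Rgs9bp was back at 3.30 and 3.66 in released embryos, against 3.48 and 3.49 in controls of day 3.5 (interaction 5.06 ± 0.50, adjusted p = 0.00465). Gadd45g had 4.74 and 4.91 in released embryos and 5.81 and 4.93 in controls of day 3.5 (interaction 5.15 ± 0.77, adjusted p = 0.0137, but 0.0506 to 0.0657 without released replicate 1 of day 3.5 or control replicate 1 of day 3.5). Rdh11, a retinal reductase, had 7.22 and 5.87 in U0126 embryos and 3.0 and 2.85 in day 2.5 controls, whereas released embryos with 5.40 and 5.77 were below the 7.45 and 6.82 of day 3.5 controls (interaction 5.17 ± 0.75, adjusted p = 0.0128, but 0.0657 without control replicate 1 of day 3.5). B3gnt5, a glycosyltransferase of lactosyl lipids, had 6.63 and 6.44 in U0126 embryos and 3.50 and 3.64 in day 2.5 controls, then 6.77 and 6.67 in released embryos and 8.72 and 7.53 in their controls (interaction 4.37 ± 0.51, adjusted p = 0.00582). Ipcef1 (interaction 4.34 ± 0.79, adjusted p = 0.0231, but 0.0563 to 0.0978 without control replicate 1 or 2 of day 2.5, released replicate 1 or 2 of day 3.5 or control replicate 1 or 2 of day 3.5) and Zfp280c (interaction 4.18 ± 0.39, adjusted p = 0.00465) complete the 6 positive ones. With values raised to 5 the interactions were 3.63 for Rgs9bp, 3.54 for Gadd45g, 3.10 for Rdh11, 3.07 for Zfp280c, 2.95 for B3gnt5 and 2.12 for Ipcef1.

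On the negative side, Dennd1b had 8.38 and 8.54 in released embryos and 8.57 and 8.85 in controls of day 3.5 (interaction -3.97 ± 0.44, adjusted p = 0.00465). Cd24a, a surface glycoprotein, was lower under U0126 with 6.10 and 5.37, against 8.50 and 8.29, and then stood at 7.19 and 7.69 in released embryos, against 5.30 and 6.19 (interaction -4.35 ± 0.52, adjusted p = 0.00587). Tspan1 had an interaction of -4.65 ± 0.88 (adjusted p = 0.0257, but 0.0522 to 0.109 without control replicate 1 or 2 of day 2.5, released replicate 1 or 2 of day 3.5 or control replicate 1 of day 3.5) and Diaph2 of -4.23 ± 0.69 (adjusted p = 0.0182, but 0.0618 to 0.0788 without control replicate 1 of day 2.5, released replicate 1 of day 3.5 or control replicate 1 of day 3.5). Sync, which links intermediate filaments in muscle, had -4.24 ± 0.67 (adjusted p = 0.0181, but 0.0605 to 0.0657 without released replicate 1 of day 3.5 or control replicate 1 of day 3.5) and Limch1, an activator of non-muscle myosin, -4.05 ± 0.78 (adjusted p = 0.0282, but 0.0603 to 0.109 without U0126 replicate 1, control replicate 1 or 2 of day 2.5, released replicate 1 or 2 of day 3.5 or control replicate 1 of day 3.5). Among lineage genes it passed for Cdx2 (-2.51 ± 0.50, adjusted p = 0.0286, but 0.0512 to 0.108 without U0126 replicate 1, control replicate 1 or 2 of day 2.5, released replicate 1 or 2 of day 3.5 or control replicate 1 or 2 of day 3.5) and Krt8 (-2.95 ± 0.59, adjusted p = 0.0297, but 0.0722 to 0.109 without control replicate 1 of day 2.5, released replicate 1 or 2 of day 3.5 or control replicate 1 or 2 of day 3.5), with Cdx2 at 9.46 and 8.91 in released embryos, against 9.81 and 9.50 in controls of day 3.5, and Krt8 at 13.18 and 13.17, against 13.84 and 12.98. With values raised to 5 they were -4.35 for Cd24a, -4.00 for Tspan1, -2.87 for Limch1, -2.71 for Sync, -2.59 for Diaph2, -2.45 for Dennd1b and -1.94 for Cdx2. For some genes the difference of day 2.5 was seen again at day 3.5. Egr1 had 6.20 and 6.04 in released embryos and 3.57 and 3.04 in controls (difference 2.82 ± 0.48, adjusted p = 0.0471; interaction 0.10 ± 0.68, adjusted p = 0.966). Obox3 had 8.05 and 7.49 in released embryos and 4.01 and 3.69 in controls (difference 3.92 ± 0.34, adjusted p = 0.00254), and Zfp352 had 9.50 and 9.74 in released embryos and 2.94 and 4.07 in controls (difference 6.11 ± 0.79, adjusted p = 0.0102). Both genes read higher in released than in U0126 embryos. Their interactions in limma's test did not pass (Obox3 -1.43 ± 0.48, adjusted p = 0.132, and Zfp352 -3.31 ± 1.11, adjusted p = 0.135). At day 3.5 released embryos had 8 cells and controls were morulae to blastocysts, so release and stage cannot be told apart.

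The U0126 arrays disagreed most for 5 genes, which are described without a test. Sfmbt2, a Polycomb gene imprinted in mouse, had 8.13 and 3.67 on the U0126 arrays and 3.41 and 4.54 on the control arrays. H2-D1, a class I histocompatibility gene, had 9.25 and 5.11 on U0126 arrays and 9.02 and 7.95 on control arrays. Rgmb, a BMP co-receptor, had 7.08 and 3.38 on U0126 arrays, against 4.65 and 5.46. Tpd52l1 had 7.27 and 3.63 on U0126 arrays, against 3.41 and 4.66. Rbms1, an RNA-binding protein gene, had 6.54 and 2.96 on U0126 arrays, against 6.93 and 7.10. In all 5 replicate 1 was the higher U0126 array.

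Each gene was read by 1 probe set, and 85 of the named genes that passed had others. Of 140 such probe sets, 131 differed in the same direction, 58 of them past the threshold, and 9 had the opposite sign, of which 0 passed in limma's test.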

How the data were processed

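Total RNA of mouse embryos was labelled by a two-cycle protocol and hybridised to whole-genome Affymetrix GeneChip arrays, per the labels' protocols. The deposited values are linear intensities per probe set, which the authors made with GCRMA, per the submitters' processing notes, and analysed with GCOS 1.2 and GeneSpring 7.3, per the series text; no source used here gives any further scaling. Values were used as log2(intensity + 1). Of 45101 probe sets, 64 were controls, 34945 had 1 gene symbol, 932 several and 9160 none; 34741 matched RefSeq (GRCm38.p6) by Entrez ID. Each of 18193 genes was read by its probe set with the highest mean, and 9929 with a level of at least 5 on at least 2 of 12 arrays were tested. All columns were used. limma 3.58.1 in R 4.3.3 fitted a mean per group over 6 groups of 2 arrays (6 residual and 4.51 prior degrees of freedom, median standard error 0.35), with Benjamini-Hochberg adjustment and a threshold of 0.05. On simulated data for this comparison with 9929 genes, 3% of genes changed by 1 log2 unit, 70% of those changed by 2 and 90% of those changed by 3 were recovered. In the simulation 9729 genes were unchanged, and each gene had the same spread in all groups. The data had more calls and a wider pooled spread on the U0126 arrays (0.54) than on the day 2.5 control arrays (0.39). These shares need not hold for the data.

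The series text speaks of independent experiments, and same-numbered arrays deviated together from their group means in all 15 pairs of groups (correlations from 0.125 to 0.417). The numbers were therefore taken to pair the samples, though the labels do not say what a number shares. In every group the Actb control signal at the 3' end exceeded that at the 5' end by more in replicate 2. The log2 excess was 4.60 against 3.57 for U0126 and 4.47 against 3.25 for day 2.5 controls. For Gapdh these groups and day 1.5 controls went the other way (U0126 2.76 against 3.11). The part of this in the shared deviations was not tested. The fit reported leaves the numbers out, while the block gave 2061 calls in place of 1383. The genes named were the 12 largest differences in each direction with values under 5 raised to 5, up to 5 called members of each list in each direction by adjusted p, 24 anchor genes whatever their values, the 5 genes in which the U0126 arrays disagreed most, and the 6 largest called interactions in each direction; not all are described. Members and lists were chosen with earlier results of these data known. Alternatives changed the scaling (centring, quantile normalization), the pseudocount, the filter, the probe set, the fit (replicate block, trend and robust, array weights, only the 4 arrays) and the arrays left out. Mapk3 and Ccnb1 were not analysed here, and Junb and Etv4 did not pass the filter.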

Additional observations from a re-analysis of the deposited data

Results flagged for a closer look

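For 55 of the 191 named genes the U0126 difference at day 2.5 differed, in limma's test of the interaction, from the difference of released and control embryos at day 3.5. Among all 9929 tested genes 298 passed this test (3.0%). Apart from the anchor genes, named genes were chosen by the day 2.5 arrays or by the interaction itself, which uses those arrays. Their share and signs are thus shaped by the choice and are not a result. Each value below is the first difference minus the second, in log2 units; the larger ones and their p-values are in the report. They were positive in 33 genes and negative in 22. Among signalling, growth arrest and clock genes, the values were Rgs9bp 5.06, Gadd45g 5.15, Dbp 3.71, Rgs17 3.48, Fgf4 2.81, Ets2 2.67, Sesn1 1.80, Smad1 3.24, Fzd4 2.52, Il6st 3.22 and Rab21 2.82. In genes highest at day 1.5 among the largest rises, and other maternal and decay genes they were Trim61 3.07, Klhl8 3.07, Tmprss11a 3.60, Btg4 1.94, Bnc1 3.74, Nlrp4f 3.51, Zfp36l2 2.33 and Fmn2 1.87. For DNA methylation genes with positive values they were Mbd1 2.51 and Uhrf1 2.87. Of the metabolic, junction and lysosome genes, Cpt1a 3.22, Cpt2 2.65, Gclc 1.79, Neu1 2.38 and Marveld3 1.70 were found. The remaining genes with positive values gave Fam122b 2.75, Zxdc 3.12, Gm17586 3.30, Rdh11 5.17, B3gnt5 4.37, Ipcef1 4.34 and Zfp280c 4.17. Among lineage and pluripotency genes, the values were Cdx2 -2.51, Krt8 -2.95 and Tfcp2l1 -2.88. In DNA methylation genes with negative values they were Dnmt3b -1.78 and Dnmt3l -1.75. For signalling genes with negative values they were Id3 -3.94, Gdf3 -3.28, Sfrp1 -2.37 and Myc -2.05. Of the adhesion, cytoskeleton and trafficking genes, Tspan1 -4.65, Diaph2 -4.23, Lasp1 -3.36, Dab2 -3.41, Dennd1b -3.97, Ocln -1.96, Limch1 -4.05, Sync -4.24 and Cd24a -4.35 were found. The metabolic and other genes with negative values gave Akr1b8 -3.92, Ckmt1 -3.23, Dhcr7 -2.08 and Nufip2 -3.52. Leaving out single arrays left 10 to 47 of these 55 past the threshold, the fewest without control replicate 1 of day 3.5 and the most without U0126 replicate 2. In 26 of the 55 at least 1 group lay under a level of 5 on both arrays, which leaves the size uncertain. For Fmn2 all 4 groups did, so its value has no interpretable size and is 0 with values raised to 5; the other 54 kept their sign.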

How the results depend on the processing

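The 1383 calls of the U0126 comparison became 409 to 1183 when 1 of its 4 arrays was left out, and 0 when limma saw only these 4 arrays, where 2245 genes had an unadjusted p under 0.05. The cause was not tested beyond the construction of these fits, which hold fewer arrays. Of the calls, 1021 were kept with centring, 1025 with quantile normalization, 1273 with a pseudocount of 16, 1268 with a level minimum of 6, 946 with no filter, 1289 with the trend and robust fit and 941 with array weights. With the replicate block, 2061 genes passed, among them all 1383, and the interaction passed in 692; the block changed no call of a named gene besides those of Etv5, Map2k2 and Sox2. The interaction passed in 298 genes, in 194 with no filter and in 22 to 396 when 1 array was left out. Calls of list members, 169, were 51 to 132 in the 4 leave-outs. With a single array left out, the lone array of a group was assumed to vary like the other groups.

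Of the 191 named genes, differences changed sign as follows, the cause not tested. In the 4 leave-outs they ran from -0.36 to 0.57 for Ccne1, -0.62 to 0.0934 for Atf4, -0.30 to 4.16 for Sfmbt2, -1.68 to 2.02 for Rgmb and -0.41 to 3.23 for Tpd52l1, all lowest or, for Atf4, highest without U0126 replicate 1. They ran from -0.13 to 0.00699 for Map2k1, -0.53 to 0.16 for Cdkn1a and -3.38 to 0.76 for H2-D1, highest without U0126 replicate 2. Rgmb was also negative without control replicate 1 and Ccne1 without control replicate 2. Centring gave -0.10 for Ccne1 and -0.0357 for Rgmb, and quantile normalization -0.15 for Rgmb. Other probe sets gave 0.44, 0.41, 0.75 and 0.93 for Xiap, 0.12 for Tead1, 0.70 for H2-D1, -1.93 for Fzd3, 0.10 for Septin7, 0.31 for Atf4, 0.0495 for Ocln and 0.00513 for Nufip2. Signal near background limits the sizes of differences where 1 group lies under a level of 5.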
